A study of Mus musculus with 126 samples.

Results

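The question asked of the RNA-seq libraries was whether a gene's response to a histone deacetylase inhibitor was the same with and without DNA methylation. The measure was the interaction: the log2 change with Trichostatin A (TSA) against DMSO in DNA methyltransferase knockout cells, minus the log2 change with TSA against DMSO in wild type cells. All 8 RNA-seq libraries of the series' 126 samples entered it. Of 23420 genes in the count table, 15822 passed a filter on low counts and were tested, and 214 (1.35% of those tested) were called at a Benjamini-Hochberg adjusted p below 0.05. The cells were mouse embryonic stem cells of the J1 line. They were either wild type or Dnmt1-/-, Dnmt3a-/-, Dnmt3b-/- TKO (the triple knockout, called TKO here). Each genotype was kept for 36 h with TSA at a labelled 5 ng/µl or with 0.0033% DMSO, and all groups were grown on gelatin in serum with leukaemia inhibitory factor. There were 2 libraries in each of the 4 groups, described as biological replicates in the series' design. The labels do not say how many clones the TKO cells came from, so a property of that line and the loss of the enzymes cannot be told apart.

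DNA methylation and histone deacetylation are both known as repressive systems at promoters. Dnmt1 copies methylation onto new DNA strands, and Dnmt3a and Dnmt3b set new marks. Histone deacetylases remove acetyl groups from histone tails, and TSA blocks the zinc-dependent members of that family. Methyl-CpG binding proteins can bring deacetylase complexes to methylated DNA, which is a textbook link between the 2 systems. An interaction of 0 on the log2 scale means that the changes multiply: the fold change of TSA is the same in both genotypes. Genes with a called interaction were placed in 3 classes. More-than-additive genes had a TSA effect that was larger in absolute size in TKO than in wild type. Less-than-additive genes had a smaller one. Opposite genes had a called TSA effect in each genotype, but of different sign. Genes whose effects differed in sign without both being called stayed in the more- or less-than-additive class. Classes describe the fitted effects and were not tested themselves.

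The promoters of 6 genes are shown so that the CpG content of 1 gene in each subgroup of the classes can be seen. Each has the smallest p among the named genes of its subgroup with a RefSeq window placed at the deposited gene start. The rule for named genes is given with the processing. Other called genes can have a smaller p, as Pde5a had against Eomes and AU022751 against Nxf2. The windows run from 250 bases before the start to 50 bases after it, are written 5′ to 3′ on the gene's strand in the GRCm38.p6 build, and have each CpG in capitals. The windows lie at chr9:118477939-118478238, plus strand, for Eomes; chr6:135362681-135362980, plus strand, for Emp1; chrX:134964705-134965004, minus strand, for Nxf2; chr11:12037371-12037670, minus strand, for Grb10; chr2:153649199-153649498, plus strand, for Dnmt3b; and chr14:47373610-47373909, plus strand, for Lgals3.
Eomes: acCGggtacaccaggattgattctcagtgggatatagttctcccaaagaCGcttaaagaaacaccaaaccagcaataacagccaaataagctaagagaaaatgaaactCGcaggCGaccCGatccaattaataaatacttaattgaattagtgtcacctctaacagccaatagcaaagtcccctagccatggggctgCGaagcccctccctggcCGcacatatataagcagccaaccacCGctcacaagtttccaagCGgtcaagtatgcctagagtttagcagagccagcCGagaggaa
Emp1: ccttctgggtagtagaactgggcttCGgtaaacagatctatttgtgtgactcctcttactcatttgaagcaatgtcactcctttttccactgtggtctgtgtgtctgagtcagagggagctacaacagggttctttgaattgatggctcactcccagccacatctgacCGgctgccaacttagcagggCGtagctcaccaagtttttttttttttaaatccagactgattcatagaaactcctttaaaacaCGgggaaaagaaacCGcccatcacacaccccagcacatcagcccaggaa
Nxf2: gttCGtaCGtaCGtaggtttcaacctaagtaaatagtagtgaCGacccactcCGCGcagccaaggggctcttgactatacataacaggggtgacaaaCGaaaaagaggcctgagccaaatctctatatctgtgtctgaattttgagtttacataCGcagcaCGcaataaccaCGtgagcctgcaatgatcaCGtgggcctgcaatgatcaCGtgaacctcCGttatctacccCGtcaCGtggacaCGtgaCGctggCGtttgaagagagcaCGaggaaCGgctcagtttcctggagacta
Grb10: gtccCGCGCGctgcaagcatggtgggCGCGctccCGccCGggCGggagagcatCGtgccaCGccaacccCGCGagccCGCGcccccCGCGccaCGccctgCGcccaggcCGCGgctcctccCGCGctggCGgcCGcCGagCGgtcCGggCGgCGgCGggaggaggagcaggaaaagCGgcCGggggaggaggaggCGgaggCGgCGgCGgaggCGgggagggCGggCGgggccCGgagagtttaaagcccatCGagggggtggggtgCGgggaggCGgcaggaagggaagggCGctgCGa
Dnmt3b: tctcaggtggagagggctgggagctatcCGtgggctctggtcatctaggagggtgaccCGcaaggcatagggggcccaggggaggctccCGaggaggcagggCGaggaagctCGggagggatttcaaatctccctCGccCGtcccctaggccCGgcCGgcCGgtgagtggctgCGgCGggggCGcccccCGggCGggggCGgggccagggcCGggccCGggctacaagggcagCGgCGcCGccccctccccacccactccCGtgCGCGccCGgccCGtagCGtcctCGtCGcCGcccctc
Lgals3: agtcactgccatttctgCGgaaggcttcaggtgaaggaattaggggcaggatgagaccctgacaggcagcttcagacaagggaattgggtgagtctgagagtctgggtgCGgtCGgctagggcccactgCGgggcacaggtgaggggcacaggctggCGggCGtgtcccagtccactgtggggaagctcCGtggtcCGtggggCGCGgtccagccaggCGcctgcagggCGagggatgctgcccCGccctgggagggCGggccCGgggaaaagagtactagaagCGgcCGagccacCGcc
The number of CpGs in the 300 bases was 10 for Eomes, 5 for Emp1, 20 for Nxf2, 45 for Grb10, 30 for Dnmt3b and 18 for Lgals3. Genes with few and with many CpGs thus stand among these 6. A comparison of CpG content between the classes was void, since only 78.0% of the called genes and 77.6% of the tested genes matched a RefSeq window.

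The libraries held 13280631 to 15542527 counts each. At that depth 3 counts, the floor used here, equal 0.193 to 0.226 CPM (counts scaled to a fixed library total). Such floors cover counting error only. Levels below are CPM scaled with TMM factors. Of the 3 targeted genes, Dnmt1 had 464 and 428 CPM in wild type with DMSO, 374 and 360.1 in wild type with TSA, 135 and 126 in TKO with DMSO and 123 and 128 in TKO with TSA. Dnmt3a had 185 and 237 CPM in wild type with DMSO, 152 and 163 in wild type with TSA, 25.9 and 27 in TKO with DMSO and 30.0 and 39.1 in TKO with TSA. Both were lower in every TKO library than in every wild type library, although counts over whole genes cannot show which exons were removed. Their interactions were not called: 0.23 for Dnmt1 (edgeR adjusted p = 0.44) and 0.81 for Dnmt3a (edgeR adjusted p = 0.0754). In the fits that left out 1 library the interaction ran from 0.18 to 0.29 for Dnmt1, never called, and from 0.61 to 0.99 for Dnmt3a, called in 2 of the 8. Dnmt3a was also called in 3 of the 11 other alternatives (lowest adjusted p = 0.00939). Markers of embryonic stem cells summed to 2850 to 3121 CPM in wild type with DMSO, 1514 to 1662 in wild type with TSA, 3689 to 4095 in TKO with DMSO and 1797 to 2038 in TKO with TSA, with all 8 markers above the floor.

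The TSA response itself was broad in both genotypes. In wild type, TSA changed 8367 genes (52.9% of those tested), with 4272 higher (27%) and 4095 lower (25.9%). In TKO it changed 9298 (58.8%), with 4879 higher (30.8%) and 4419 lower (27.9%). Against this, the difference between the responses was called in 214 genes. The TSA effect was more positive in TKO in 137 genes (0.866% of those tested) and more negative in 77 (0.487%). The absolute interaction of the called genes ran from 0.61 to 4.58, with a median of 1.32, and 206 of them had over 3 counts in all 8 libraries. For all 214, the 4 differences between TSA and DMSO libraries of TKO lay outside the range of the 4 of wild type, a separation found in 29.2% of all tested genes. The split between directions depended on scaling: with total counts alone it was 98 more positive and 86 more negative, and with upper quartile factors 92 and 87. The number of calls also depended on single libraries. Without wild type DMSO replicate 1 or 2 it was 95 or 427, without wild type TSA replicate 1 or 2 it was 44 or 109, without TKO DMSO replicate 1 or 2 it was 56 or 15, and without TKO TSA replicate 1 or 2 it was 181 or 44. The sign of the interaction was the same for all 214 genes in each of these 8 fits. The 214 were called from these same libraries, so a kept sign gives no separate support.

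**Figure D1:**
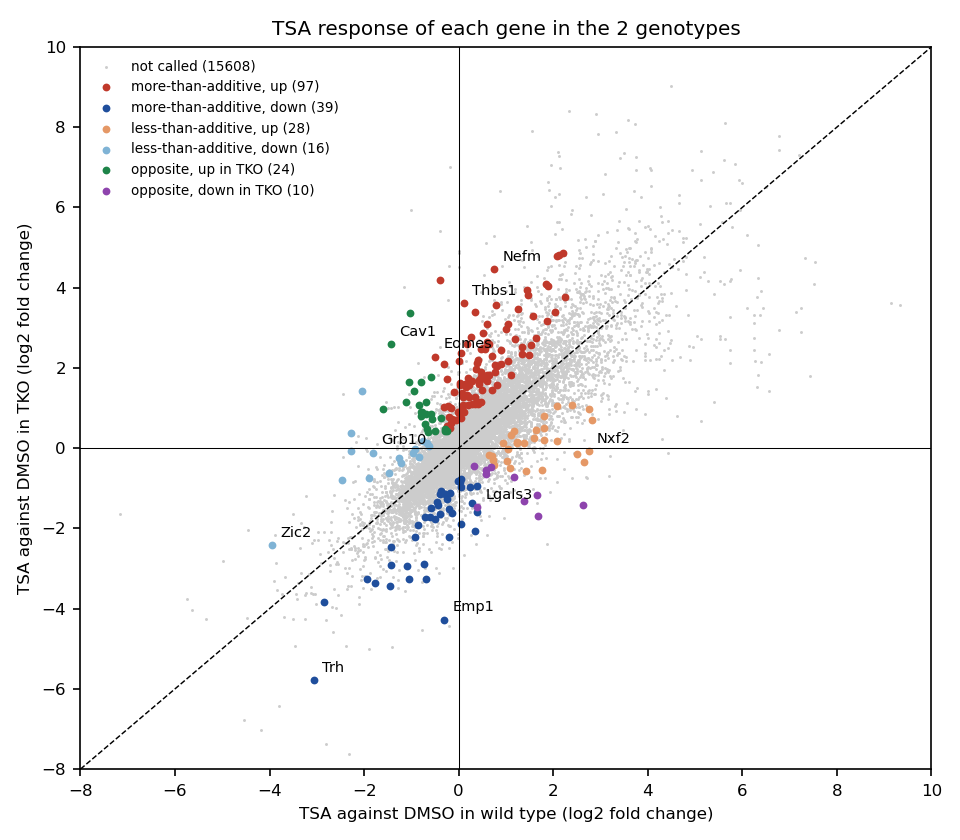
Log2 fold change with TSA in wild type (x axis) and in TKO (y axis) for each of the 15822 genes tested, with the 214 genes called for the interaction coloured by class and the dashed line where both changes are equal. Red points of the more-than-additive genes that rose in TKO are the most numerous of the coloured groups, with 97 genes.

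The more-than-additive class held 136 genes, of which 97 rose and 39 fell with TSA in TKO. In the 97 that rose, the median TSA effect was 0.44 in wild type and 1.89 in TKO on the log2 scale. Of these, 49 were called as higher with TSA in both genotypes and 48 in TKO alone. Their median level was 21.9 CPM in wild type with DMSO, 32.0 in wild type with TSA, 7.02 in TKO with DMSO and 31.5 in TKO with TSA. The lowest of the 4 group means was that of TKO with DMSO in 86 of the 97 genes, and 71 of the 97 were called as lower in TKO than in wild type under DMSO, while 3 were called as higher. That contrast and the interaction share the TKO DMSO and the wild type DMSO libraries, so these counts describe the shape of the class and support nothing further. Over all tested genes, 20.5% were called between the genotypes under DMSO, 9.69% higher and 10.8% lower in TKO. These were 3240 genes, and 1451 without TKO DMSO replicate 2.

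Eomes (chr9:118478189-118486132), a T-box transcription factor of the early embryo and of trophoblast, was the more-than-additive gene with the most stable rise among the 4 largest of its subgroup. It had 9.35 and 6.32 CPM in wild type with DMSO, 6.05 and 5.03 in wild type with TSA, 2.39 and 2.84 in TKO with DMSO and 12.4 and 13.1 in TKO with TSA. Both TKO TSA libraries were above all others, and both TKO DMSO libraries were below all others. The interaction was 2.79 ± 0.34 (SE, edgeR adjusted p = 0.00368), and the gene stayed called in all 8 fits that left out 1 library. Thbs1 (chr2:118111922-118127133), which encodes the matrix glycoprotein thrombospondin 1, had 272 and 125 CPM in wild type with DMSO, 236 and 193 in wild type with TSA, 15.2 and 8.66 in TKO with DMSO and 136 and 159 in TKO with TSA. TKO with TSA overlapped the range of wild type, and only the TKO DMSO libraries stood below the rest. Its interaction was 3.51 ± 0.56 (SE, edgeR adjusted p = 0.0397). Col1a1 (chr11:94936270-94951856), the alpha chain that makes up most of type I collagen, had 12.1 and 12.7 CPM in wild type with DMSO, 13.3 and 18.5 in wild type with TSA, 0.684 and 0.655 in TKO with DMSO and 4.53 and 9.73 in TKO with TSA. Again the TKO DMSO libraries were far below the rest, and TKO with TSA stayed below wild type. Its interaction was 3.05 ± 0.54 (SE, edgeR adjusted p = 0.0279). Nefm, a neurofilament subunit of neurons, had 5.5 and 1.46 CPM in wild type with DMSO, 6.78 and 5.17 in wild type with TSA, 3.01 and 2.11 in TKO with DMSO and 48 and 65.6 in TKO with TSA. Here it was TKO with TSA that stood apart. Its interaction was 3.71 ± 0.67 (SE, edgeR adjusted p = 0.0448), and 33.3% of its exon length overlaps A230070E04Rik, so reads of the pair cannot be told apart without strand. These 3 calls depended on single libraries. Thbs1 was lost without any of the 4 TSA libraries or either TKO DMSO library (highest adjusted p = 0.17 without TKO TSA replicate 2). Col1a1 was lost without replicate 1 of wild type DMSO or of wild type TSA, or without either TKO DMSO library (highest adjusted p = 0.17 without TKO DMSO replicate 2). Nefm was lost in 6 of the 8 fits, staying called only without wild type DMSO replicate 2 or TKO TSA replicate 1 (highest adjusted p = 0.169 without TKO DMSO replicate 2), and its interaction ran from 2.44 without wild type DMSO replicate 1 to 4.34 without wild type DMSO replicate 2.

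In the 39 more-than-additive genes that fell, the median TSA effect was -0.40 in wild type and -1.71 in TKO on the log2 scale. Of these, 22 were called as lower with TSA in both genotypes and 17 in TKO alone. The highest group mean was that of TKO with DMSO in 32 of the 39, and the lowest was that of TKO with TSA in 34. Over all 15822 tested genes these counts were 3776 and 4340. The class rule uses the same group means, so the counts only describe the shape of the subgroup. Emp1 (chr6:135362931-135383173), a membrane protein of epithelia, had the smallest p of all genes. Its level was 33.3 and 43.3 CPM in wild type with DMSO, 29.6 and 32.4 in wild type with TSA, 37.4 and 42.5 in TKO with DMSO and 1.89 and 2.2 in TKO with TSA. The 6 libraries of the other groups lay between 29.6 and 43.3 CPM, and both TKO TSA libraries were far below them. The TSA effect was -0.30 in wild type and -4.28 in TKO, and the interaction was -3.97 ± 0.25 (SE, edgeR adjusted p = 2.29e-05). Trh, the precursor of thyrotropin-releasing hormone, which embryonic stem cells are known to transcribe strongly, had 737 and 799 CPM in wild type with DMSO, 109 and 73.9 in wild type with TSA, 473 and 614 in TKO with DMSO and 11.2 and 8.54 in TKO with TSA. TSA lowered it in both genotypes, and more in TKO, with an interaction of -2.71 ± 0.30 (SE, edgeR adjusted p = 0.00601). Gap43, a protein of growing axons, had 25.7 and 29.9 CPM in wild type with DMSO, 18.7 and 15.6 in wild type with TSA, 11 and 9.1 in TKO with DMSO and 1.08 and 1.00 in TKO with TSA. No library of TKO with TSA came near the other groups, and the interaction was -2.57 ± 0.30 (SE, edgeR adjusted p = 0.00318). Tgfbi, a secreted matrix adhesion protein, had 3.93 and 4.94 CPM in wild type with DMSO, 5.13 and 6.12 in wild type with TSA, 9.92 and 8.73 in TKO with DMSO and 1.96 and 2.51 in TKO with TSA. It was highest in TKO with DMSO and lowest in TKO with TSA, and the interaction was -2.40 ± 0.34 (SE, edgeR adjusted p = 0.00932). Emp1 and Gap43 stayed called in all 8 fits that left out 1 library. For Trh and Gap43 the direction depended on the scale: as a difference in CPM, TSA took more from wild type than from TKO. The mean of Trh went from 768 to 91.4 CPM in wild type and from 544 to 9.89 in TKO, and that of Gap43 from 27.8 to 17.2 and from 10.1 to 1.04. Trh was lost without wild type DMSO replicate 1 (adjusted p = 0.0563), and Tgfbi without TKO DMSO replicate 2 (adjusted p = 0.0565).

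**Figure D2:**
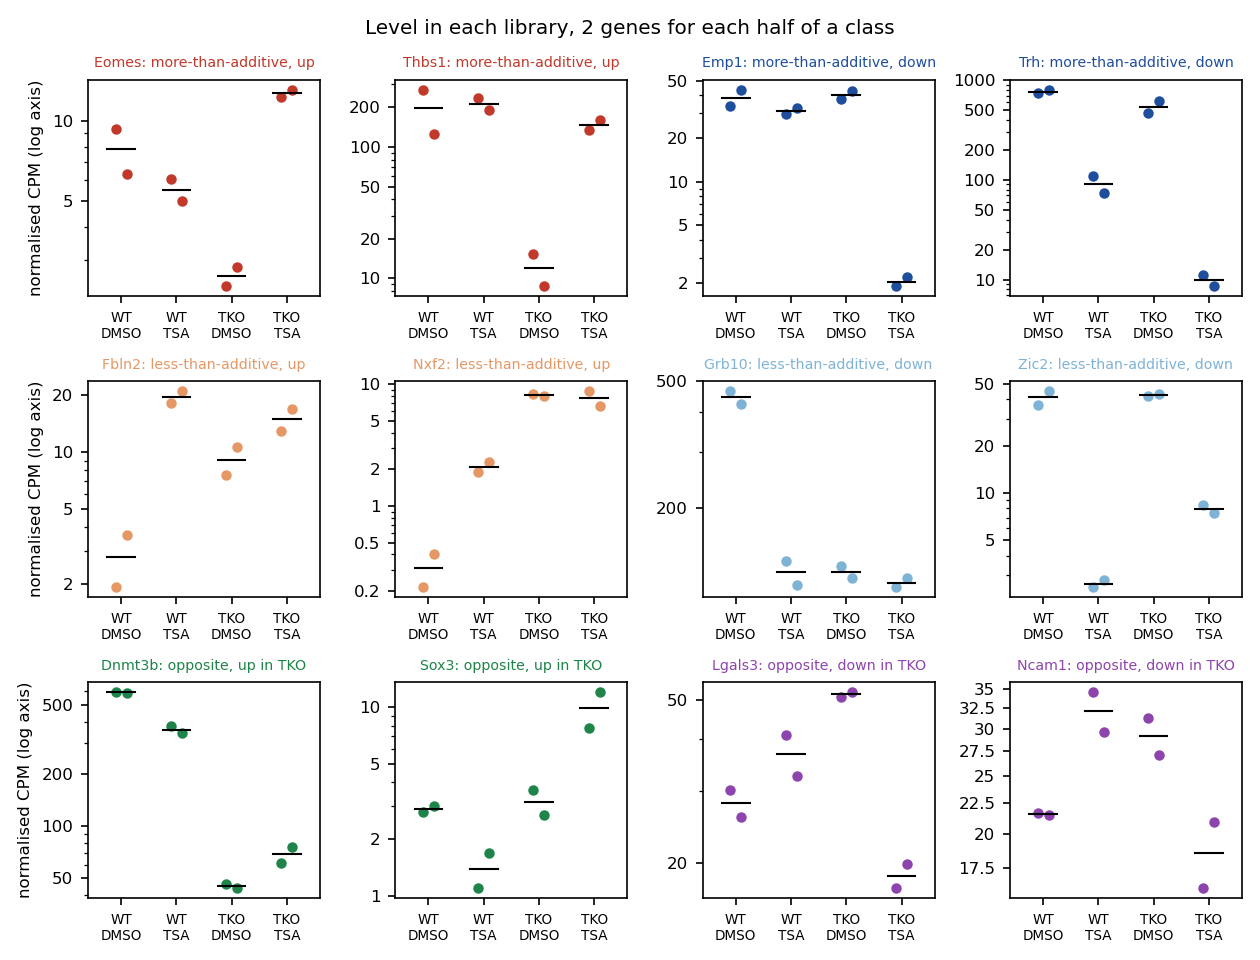
Normalised CPM on a log axis in each of the 8 libraries for 12 genes, 2 for each subgroup of the classes, with points for the 2 libraries of a group and a black line at their mean. Emp1 lies at 1.89 and 2.20 CPM in TKO with TSA and at 29.6 CPM or more in the other groups, while Grb10 is high in wild type with DMSO alone.

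The less-than-additive class held 44 genes, of which 28 rose and 16 fell with TSA in wild type. In the 28 that rose, the median TSA effect was 1.52 in wild type and 0.13 in TKO on the log2 scale. Of these, 19 were called as higher with TSA in wild type alone and 9 in both genotypes. The lowest group mean was that of wild type with DMSO in 25 of the 28, and in 4097 of the 15822 tested genes. The class rule uses the same group means, so the count only describes the 28 genes. Their median log2 change from wild type DMSO cells to TKO cells with TSA was 1.20, against 1.52 for TSA alone and 1.05 for TKO alone. Those 3 contrasts share the wild type DMSO libraries.

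Gpr146, an orphan receptor of the G protein-coupled family, had 0.285 and 0.324 CPM in wild type with DMSO, 2.38 and 1.5 in wild type with TSA, 2.12 and 3.06 in TKO with DMSO and 1.76 and 2.26 in TKO with TSA. Only the wild type DMSO libraries were low, near the floor, and the other 3 groups overlapped, with an interaction of -3.01 ± 0.61 (SE, edgeR adjusted p = 0.037). Fbln2, a basement membrane and elastic fibre protein, had 1.93 and 3.65 CPM in wild type with DMSO, 18.1 and 21.1 in wild type with TSA, 7.6 and 10.6 in TKO with DMSO and 12.9 and 17 in TKO with TSA. It was higher with TSA in both genotypes, and its interaction was -2.11 ± 0.38 (SE, edgeR adjusted p = 0.027). Cdkl4, a protein kinase related to cyclin-dependent kinases, had 1.36 and 2.03 CPM in wild type with DMSO, 4.4 and 4.69 in wild type with TSA, 4.79 and 6.55 in TKO with DMSO and 3.79 and 3.89 in TKO with TSA, with an interaction of -1.99 ± 0.39 (SE, edgeR adjusted p = 0.0342). Clic5, a protein of the chloride intracellular channel family, had 4.00 and 2.76 CPM in wild type with DMSO, 11.5 and 11.6 in wild type with TSA, 3.35 and 1.46 in TKO with DMSO and 1.35 and 1.95 in TKO with TSA. In contrast to the other 3, it was high in wild type with TSA alone, and its interaction was -2.30 ± 0.50 (SE, edgeR adjusted p = 0.0485). None of these 4 calls was independent of the choice of libraries. Clic5 was lost in each of the 8 fits that left out 1 library (highest adjusted p = 0.237 without TKO DMSO replicate 1), and its interaction ran from -1.57 without TKO DMSO replicate 1 to -2.77 without TKO DMSO replicate 2. Gpr146 stayed called only without wild type TSA replicate 2, and Cdkl4 only without wild type DMSO replicate 2 (highest adjusted p = 0.175 without TKO DMSO replicate 2, and the same for Cdkl4). Fbln2 was lost without wild type DMSO replicate 1, either wild type TSA library or TKO DMSO replicate 2 (highest adjusted p = 0.154 without TKO DMSO replicate 2), and ran from -1.70 without wild type DMSO replicate 1 to -2.62 without wild type DMSO replicate 2.

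In the 16 less-than-additive genes that fell, the median TSA effect was -1.36 in wild type and -0.12 in TKO on the log2 scale. Of these, 10 were called as lower with TSA in wild type alone and 6 in both genotypes. The highest group mean was that of wild type with DMSO in 12 of the 16, and in 4054 of the 15822 tested genes. The class rule uses the same group means, so the count is a description only. Grb10 (chr11:11930499-12037420), an imprinted adaptor protein that restrains growth factor signalling, had 466 and 425 CPM in wild type with DMSO, 137 and 115 in wild type with TSA, 132 and 121 in TKO with DMSO and 113 and 121 in TKO with TSA. The 6 libraries with TSA, with TKO or with both lay between 113 and 137 CPM, and only wild type with DMSO stood above them. TSA alone changed it by -1.82, TKO alone by -1.81 and both together by -1.93 on the log2 scale, contrasts that share the wild type DMSO libraries. The interaction was 1.70 ± 0.15 (SE, edgeR adjusted p = 0.000639), and it stayed called in all 8 fits that left out 1 library. Dpp4, a cell surface peptidase, had 23.3 and 31.2 CPM in wild type with DMSO, 5.01 and 4.76 in wild type with TSA, 27.8 and 26.1 in TKO with DMSO and 16 and 15.1 in TKO with TSA. It fell with TSA in both genotypes and fell less in TKO, with an interaction of 1.68 ± 0.24 (SE, edgeR adjusted p = 0.00887). Ptchd1, a membrane protein related to the Hedgehog receptor, had 6.49 and 7.13 CPM in wild type with DMSO, 1.16 and 1.63 in wild type with TSA, 3.35 and 2.11 in TKO with DMSO and 2.1 and 3.14 in TKO with TSA, with an interaction of 2.23 ± 0.46 (SE, edgeR adjusted p = 0.0397). The transcript 9930014A18Rik had 6.14 and 4.86 CPM in wild type with DMSO, 1.22 and 1.02 in wild type with TSA, 0.958 and 1.09 in TKO with DMSO and 1.42 and 1.26 in TKO with TSA, with an interaction of 2.67 ± 0.47 (SE, edgeR adjusted p = 0.0252), and 25.3% of its exon length overlaps Fam84b, itself a called gene. Dpp4 was lost without TKO DMSO replicate 2 (adjusted p = 0.0825). Ptchd1 stayed called only without TKO TSA replicate 1, and 9930014A18Rik only without wild type DMSO replicate 2 (highest adjusted p = 0.184 without TKO DMSO replicate 2, and 0.137 without TKO DMSO replicate 2).

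The opposite class held 34 genes. TSA lowered 24 of them in wild type and raised them in TKO, with median effects of -0.71 and 0.88 on the log2 scale. In 18 of these 24, the lowest group mean was that of TKO with DMSO, as in 4153 of the 15822 tested genes. The class rule uses the same group means, so this count too is a description only. Sox3, an X-linked transcription factor of the neural lineage and of the primed state, had 2.78 and 3.00 CPM in wild type with DMSO, 1.1 and 1.7 in wild type with TSA, 3.63 and 2.69 in TKO with DMSO and 7.78 and 12.1 in TKO with TSA. Both TKO TSA libraries were above all others and both wild type TSA libraries were below all others, and the interaction was 2.70 ± 0.46 (SE, edgeR adjusted p = 0.0198). Shisa3, which is known to restrain Wnt and FGF signalling, had 8.14 and 5.51 CPM in wild type with DMSO, 2.75 and 1.7 in wild type with TSA, 2.05 and 1.6 in TKO with DMSO and 4.13 and 3.08 in TKO with TSA, with an interaction of 2.58 ± 0.46 (SE, edgeR adjusted p = 0.027). Pkdcc, a secreted tyrosine kinase that acts on matrix proteins, had 28 and 17.6 CPM in wild type with DMSO, 12.8 and 13.7 in wild type with TSA, 3.97 and 3.35 in TKO with DMSO and 11.4 and 11.5 in TKO with TSA. Its TKO TSA libraries lay above those of TKO with DMSO and just below those of wild type with TSA, and the interaction was 2.43 ± 0.32 (SE, edgeR adjusted p = 0.00453). Cdh10, a cadherin of the nervous system, had 7.49 and 7.29 CPM in wild type with DMSO, 3.97 and 3.67 in wild type with TSA, 1.44 and 0.946 in TKO with DMSO and 2.77 and 3.7 in TKO with TSA, with an interaction of 2.38 ± 0.40 (SE, edgeR adjusted p = 0.0198). Pkdcc was lost only without TKO DMSO replicate 2 (adjusted p = 0.0622). Cdh10 was lost without that library, wild type TSA replicate 1 or TKO TSA replicate 2 (highest adjusted p = 0.138 without TKO DMSO replicate 2). Sox3 was lost without those 3 libraries or TKO DMSO replicate 1 (highest adjusted p = 0.137 without TKO DMSO replicate 2), and Shisa3 stayed called only without wild type DMSO replicate 2 or wild type TSA replicate 1 (highest adjusted p = 0.157 without TKO DMSO replicate 2).

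Dnmt3b (chr2:153649449-153687730), one of the 3 targeted methyltransferases, also fell in this subgroup. It had 596 and 588 CPM in wild type with DMSO, 378 and 343 in wild type with TSA, 46.2 and 43.7 in TKO with DMSO and 61.4 and 76.1 in TKO with TSA. TKO libraries were far below wild type in both treatments. TSA changed it by -0.72 in wild type and 0.61 in TKO, and the interaction was 1.33 ± 0.16 (SE, edgeR adjusted p = 0.00318). It stayed called in all 8 fits that left out 1 library. Since the gene was disrupted in TKO, the reads there come from an altered locus, and the part of that in the difference was not tested.

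In the 10 opposite genes with the reverse pattern, TSA raised the level in wild type (median 0.92) and lowered it in TKO (median -0.95). Lgals3 (chr14:47373860-47386167), the secreted lectin galectin 3, had 30.0 and 25.9 CPM in wild type with DMSO, 41 and 32.6 in wild type with TSA, 50.8 and 52.2 in TKO with DMSO and 17.3 and 19.9 in TKO with TSA. TKO with DMSO was the highest group and TKO with TSA the lowest, with no overlap between them, and the interaction was -1.86 ± 0.20 (SE, edgeR adjusted p = 0.00275). It stayed called in all 8 fits that left out 1 library. Dusp26, a dual-specificity phosphatase, had 3.00 and 4.62 CPM in wild type with DMSO, 9.34 and 7.68 in wild type with TSA, 8.35 and 8.44 in TKO with DMSO and 5.14 and 5.02 in TKO with TSA, with an interaction of -1.89 ± 0.33 (SE, edgeR adjusted p = 0.0241). Alox12e, an epidermal lipoxygenase, had 0.856 and 0.324 CPM in wild type with DMSO, 2.26 and 1.56 in wild type with TSA, 2.53 and 3.2 in TKO with DMSO and 1.22 and 1.32 in TKO with TSA, with an interaction of -2.82 ± 0.59 (SE, edgeR adjusted p = 0.0397). Ccdc13, a coiled-coil protein of centriolar satellites, had 0.856 and 1.05 CPM in wild type with DMSO, 1.83 and 3.19 in wild type with TSA, 3.83 and 5.39 in TKO with DMSO and 2.03 and 1.63 in TKO with TSA, with an interaction of -2.71 ± 0.52 (SE, edgeR adjusted p = 0.0323). The wild type DMSO libraries were the lowest for all 3 of these genes. Dusp26 was lost in 5 of the 8 fits, those without replicate 1 of either wild type group, either TKO DMSO library or TKO TSA replicate 2 (highest adjusted p = 0.137 without TKO DMSO replicate 2). Ccdc13 was lost without wild type DMSO replicate 1, wild type TSA replicate 2, either TKO DMSO library or TKO TSA replicate 2 (highest adjusted p = 0.166 without TKO DMSO replicate 2). Alox12e stayed called only without wild type DMSO replicate 1 (highest adjusted p = 0.187 without TKO DMSO replicate 2), and its interaction ran from -2.33 without wild type DMSO replicate 2 to -3.69 without wild type DMSO replicate 1.

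**Figure D3:**
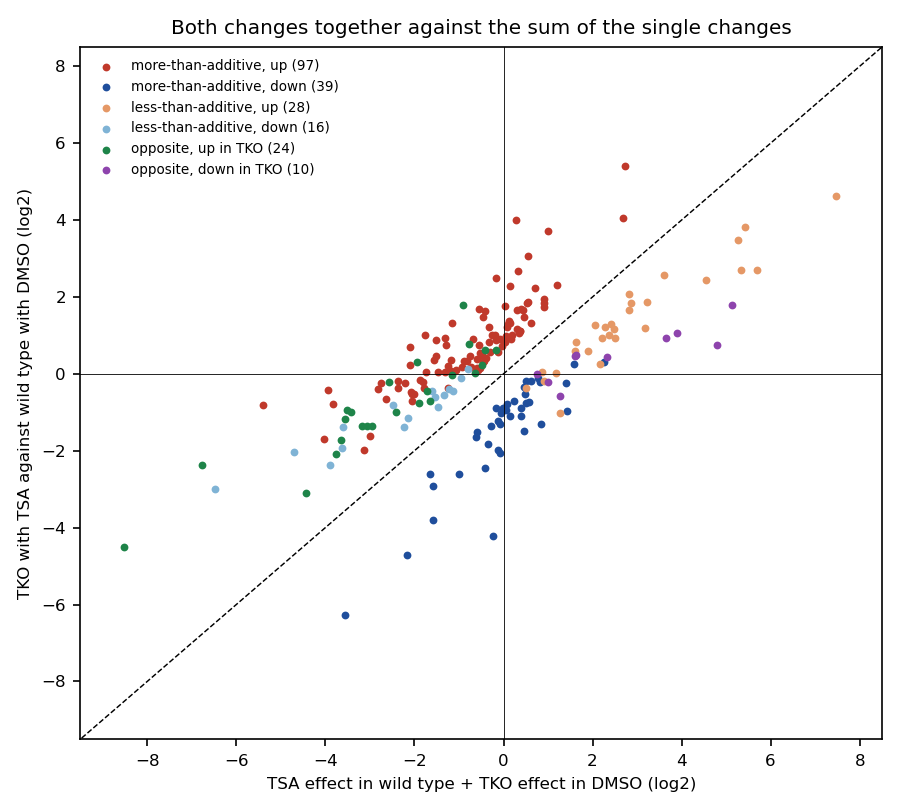
Log2 change from wild type DMSO cells to TKO cells with TSA (y axis) plotted against the sum of the log2 changes of TSA in wild type and of TKO in DMSO (x axis) for the 214 called genes, coloured by class, with the dashed line where they are equal. The vertical distance of a point from the line is its interaction, which is 0.61 or more in size for each gene shown.

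Of the 214 called genes, 13 stayed called in each of the 8 fits that left out 1 library, and 14 were called in none of them. The 13 were Emp1, Gap43, Grb10, Lgals3, Eomes and Dnmt3b, described above, and 7 more, of which 6 are given here, named after their values were seen. Pde5a, a phosphodiesterase that breaks down cyclic GMP, had 23.3 and 20.5 CPM in wild type with DMSO, 23.3 and 20.9 in wild type with TSA, 4.58 and 3.86 in TKO with DMSO and 18.4 and 20.0 in TKO with TSA. Prom1, the membrane glycoprotein CD133, had 69.7 and 53.3 CPM in wild type with DMSO, 84.5 and 80.1 in wild type with TSA, 15.3 and 12.3 in TKO with DMSO and 67.1 and 60.2 in TKO with TSA. In both genes the TKO DMSO libraries were the low ones, and their interactions were 2.17 ± 0.23 (SE, edgeR adjusted p = 0.00275) and 1.79 ± 0.20 (SE, edgeR adjusted p = 0.00318). Slc40a1, the iron exporter ferroportin, had 22.1 and 15.5 CPM in wild type with DMSO, 37.3 and 40.4 in wild type with TSA, 7.6 and 6.11 in TKO with DMSO and 56.5 and 60.2 in TKO with TSA, so that TSA raised it in both genotypes and more in TKO, with an interaction of 2.04 ± 0.24 (SE, edgeR adjusted p = 0.00318). BC051019 had 1.57 and 2.03 CPM in wild type with DMSO, 7.63 and 8.09 in wild type with TSA, 3.2 and 2.18 in TKO with DMSO and 81.1 and 71 in TKO with TSA, with an interaction of 2.67 ± 0.32 (SE, edgeR adjusted p = 0.00368). Both TKO TSA libraries of BC051019 were above all others. Ifrd1, a transcriptional co-regulator induced during differentiation, was in the opposite class with 200.0 and 226 CPM in wild type with DMSO, 164 and 167 in wild type with TSA, 113 and 133 in TKO with DMSO and 205 and 209 in TKO with TSA, and an interaction of 1.11 ± 0.15 (SE, edgeR adjusted p = 0.00453). AU022751, an X-linked transcript, was a less-than-additive gene with 3.43 and 3.81 CPM in wild type with DMSO, 11.7 and 13.7 in wild type with TSA, 45.6 and 42.8 in TKO with DMSO and 53.1 and 48.4 in TKO with TSA. TSA raised it in wild type and changed it little against its high level in TKO, with an interaction of -1.61 ± 0.21 (SE, edgeR adjusted p = 0.00453).

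Gene lists for lineages and pathways showed few calls each, beside 1.35% over all tested genes, whose median interaction was 0.01. Of the list of formative and primed state genes, which mark the passage from the naive to the epiblast-like state, 17 members were tested and 4 were called, all with a more positive TSA effect in TKO: Dnmt3b, Eomes, Sox3 and Zic2. That is 23.5% of the members, and the median interaction of the list was 0.70, with 11 of 17 members above 0. That median ran from 0.39 without TKO DMSO replicate 2 to 1.16 without TKO DMSO replicate 1. Of the called members, Dnmt3b is a targeted gene whose reads in TKO come from an altered locus. The list was chosen with earlier results of these data known, so its share of calls is a description only. Zic2, a zinc finger factor of the epiblast and neural plate, had 36.8 and 45.1 CPM in wild type with DMSO, 2.5 and 2.79 in wild type with TSA, 41.9 and 43.1 in TKO with DMSO and 8.39 and 7.47 in TKO with TSA. TSA lowered it in both genotypes, and its libraries in TKO with TSA lay above those in wild type with TSA, with an interaction of 1.53 ± 0.23 (SE, edgeR adjusted p = 0.0134). It was lost without wild type TSA replicate 1 or either TKO DMSO library (highest adjusted p = 0.0826 without TKO DMSO replicate 2). The other 13 members were not called.

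Mesenchymal and extracellular matrix genes encode collagens, their crosslinking enzymes and contractile proteins. Of 49 tested members, 4 were called (8.16%), all with a more positive TSA effect in TKO, and 36 of 49 had an interaction above 0. DESeq2 called 12 of the 49 and limma-voom 1, beside 2.53% and 0.676% of all tested genes. The median interaction ran from 0.40 without wild type DMSO replicate 1 to 0.79 without wild type DMSO replicate 2. The list's median log2 change with TSA was 0.35 in wild type and 1.22 in TKO, and its median change between TKO and wild type was -1.23 under DMSO and -0.51 under TSA. Besides Col1a1, the called members were Tnc, Cav1 and Col3a1, and all 3 were near the floor in TKO with DMSO, where a fitted fold change depends on the prior count, so counts are given. Tnc, the matrix protein tenascin C, had 114 and 74 in wild type with DMSO, 110 and 60 in wild type with TSA, 6 and 0 in TKO with DMSO and 40 and 84 in TKO with TSA reads. Cav1, the coat protein of caveolae, had 267 and 151 in wild type with DMSO, 103 and 79 in wild type with TSA, 2 and 1 in TKO with DMSO and 7 and 14 in TKO with TSA reads. Col3a1, the fibrillar collagen of soft tissues, had 73 and 40 in wild type with DMSO, 45 and 20 in wild type with TSA, 1 and 1 in TKO with DMSO and 11 and 14 in TKO with TSA reads. Wild type libraries exceeded TKO DMSO libraries for each of the 3, and for Cav1 and Col3a1 every TKO TSA library stayed below every wild type library. The edgeR adjusted p of the interaction was 0.0369 for Tnc, 0.0322 for Cav1 and 0.0373 for Col3a1. Tnc was lost without either wild type TSA library, wild type DMSO replicate 1, TKO DMSO replicate 2 or TKO TSA replicate 2 (highest adjusted p = 0.15 without TKO DMSO replicate 2). Cav1 stayed called only without wild type DMSO replicate 2 or TKO TSA replicate 1, and Col3a1 only without wild type DMSO replicate 2 or wild type TSA replicate 1 (highest adjusted p = 0.182 without TKO DMSO replicate 2, and 0.192 without TKO DMSO replicate 2). Fibroblast markers summed to 38.5 to 45.1 CPM in wild type with DMSO, 80.3 to 96.1 in wild type with TSA, 11.0 in each TKO DMSO library and 36.4 to 54.5 in TKO with TSA, with all 8 markers above the floor in at least 1 library. The low sum in TKO with DMSO came from Col1a1, Col1a2 and Col3a1, of which 2 are called genes of this list. Without these 3, a choice made after their values were seen, the sums were 9.85 to 11.1 CPM in wild type with DMSO, 33.6 to 36.3 in wild type with TSA, 8.66 to 9.17 in TKO with DMSO and 22.7 to 29.4 in TKO with TSA. In bulk libraries, fewer cells of a type and less RNA per cell cannot be told apart.

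**Figure D4:**
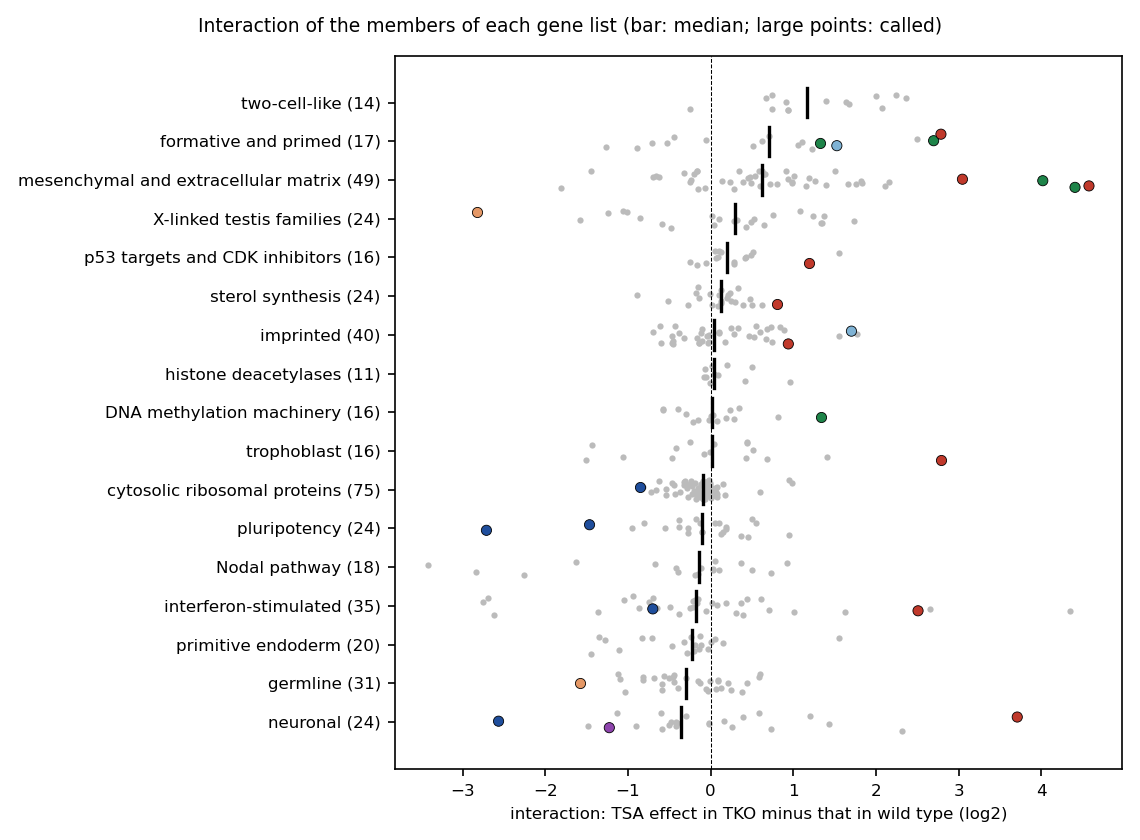
Interaction on the log2 scale of each tested member of the 17 gene lists, with the number of tested members in brackets, black bars at the medians, and large coloured points for the called genes in their class colour. The 2-cell-like genes have the highest median, 1.17, without a called member, and 4 of the 17 formative and primed genes are called, the targeted gene Dnmt3b among them.

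Genes of the 2-cell-like state, which a small share of embryonic stem cells enters and which include the Zscan4 cluster, had the highest list median. The median interaction was 1.17, and 13 of 14 members were above 0, but none was called in the edgeR test, where 5 had an unadjusted p below 0.05. DESeq2 called 4 and limma-voom 0. Over all tested genes, 14.4% had an unadjusted edgeR p below 0.05, DESeq2 called 2.53% and limma-voom 0.676%. The median ran from 0.87 without wild type TSA replicate 1 to 1.86 without TKO DMSO replicate 2. Several are near-identical copies, so their counts are uncertain. Markers of that state summed to 10.3 to 10.6 CPM in wild type with DMSO, 117 to 203 in wild type with TSA, 6.63 to 7.78 in TKO with DMSO and 250 to 317 in TKO with TSA.

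The pluripotency list holds genes that keep embryonic stem cells undifferentiated and genes that such cells transcribe strongly, such as Trh. Its members were chosen with earlier results of these data known. Of 24 tested, 2 were called (8.33%), both more-than-additive and falling. They were Trh, the hormone precursor described above, and Prdm14, a zinc finger protein that keeps stem cells naive. Prdm14 had 14.1 and 18.6 CPM in wild type with DMSO, 6.41 and 5.64 in wild type with TSA, 30.0 and 39.4 in TKO with DMSO and 5.21 and 4.08 in TKO with TSA. It was highest in TKO with DMSO, and its interaction was -1.47 ± 0.30 (SE, edgeR adjusted p = 0.037), a call kept only without wild type DMSO replicate 2 or TKO TSA replicate 1 (highest adjusted p = 0.187 without TKO DMSO replicate 2). Members at the centre of the network were not called, with interactions of -0.27 for Pou5f1, -0.10 for Sox2 and 0.15 for Nanog. The list median was -0.10, and ran from -0.15 without TKO TSA replicate 1 to -0.00051 without wild type DMSO replicate 1.

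Of 24 tested neuronal genes, 3 were called (12.5%) in 3 different subgroups: Nefm and Gap43, described above, and Ncam1. Ncam1, a neural cell adhesion molecule, had 21.7 and 21.5 CPM in wild type with DMSO, 34.6 and 29.6 in wild type with TSA, 31.3 and 27.1 in TKO with DMSO and 16.2 and 20.9 in TKO with TSA. It was in the opposite class, with an interaction of -1.23 ± 0.22 (SE, edgeR adjusted p = 0.0249), lost without replicate 1 of any group or TKO DMSO replicate 2 (highest adjusted p = 0.103 without TKO DMSO replicate 2). The list median was -0.35, and ran from -0.40 without TKO DMSO replicate 2 to -0.12 without TKO DMSO replicate 1. Neuron markers summed to 390 to 406 CPM in wild type with DMSO, 200.2 to 238 in wild type with TSA, 426 to 431 in TKO with DMSO and 152 to 162 in TKO with TSA. Most of that sum was Tubb3 and Stmn2. Without them, a choice made after their values were seen, the other 4 markers summed to 21.5 to 24.2 CPM in wild type with DMSO, 44.1 to 47.9 in wild type with TSA, 19.13 to 22.2 in TKO with DMSO and 30.4 to 34.1 in TKO with TSA. This sum was higher with TSA in both genotypes, but most of it was Map2. Map2 had 20.3 and 17.5 CPM in TKO with DMSO and 30.6 and 25.6 in TKO with TSA. Syt1 also rose in TKO, from 0.616 and 0.873 to 2.30 and 3.58 CPM. Snap25 (0.410 and 0.218, then 0.406 and 0.376) and Rbfox3 (0.821 and 0.509, then 0.811 and 0.878) overlapped between the treatments there.

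Germline genes, many of which are silenced by promoter methylation, and X-linked testis families gave 1 call each, both less-than-additive. Of 31 tested germline genes, only Stk31, a germ cell kinase with a Tudor domain, was called, and the list median was -0.30. The sign of that median depended on single libraries: it was -0.61 without wild type TSA replicate 1 and 0.17 without wild type TSA replicate 2. Stk31 had 18 and 27.9 CPM in wild type with DMSO, 42.4 and 54.9 in wild type with TSA, 64.6 and 57.8 in TKO with DMSO and 50.0 and 37.4 in TKO with TSA, so that wild type with DMSO was the lowest group, and its interaction was -1.58 ± 0.30 (SE, edgeR adjusted p = 0.0422). Of 24 tested X-linked testis genes, only Nxf2, an mRNA export factor of the testis, was called, and the list median was 0.30, with 0.58 without wild type TSA replicate 2 and -0.05 without wild type DMSO replicate 2. It had 0.214 and 0.405 CPM in wild type with DMSO, 1.89 and 2.31 in wild type with TSA, 8.35 and 8.00 in TKO with DMSO and 8.86 and 6.66 in TKO with TSA. Wild type with DMSO was near the floor, and TKO libraries were high in both treatments, with an interaction of -2.83 ± 0.50 (SE, edgeR adjusted p = 0.0252). Nxf2 has closely similar copies, so its counts are uncertain. The list median includes Magea2, Magea3 and Magea6, whose fitted TSA effect in wild type was 0.0. Their interactions of 1.34, 1.08 and 0.65 were thus the fitted change in TKO, and none was called. Both calls were kept only without wild type DMSO replicate 2 or TKO TSA replicate 1 (highest adjusted p = 0.158 without TKO DMSO replicate 2 for Stk31 and 0.122 without TKO DMSO replicate 2 for Nxf2), and Stk31 ran from -1.28 without wild type DMSO replicate 1 to -1.92 without wild type DMSO replicate 2.

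Imprinted genes, whose parental copies differ in methylation, gave 2 calls among 40 tested (5.00%), with a list median of 0.04 (0.17 without wild type TSA replicate 1, and -0.0020 without wild type TSA replicate 2). Besides Grb10, Mest, a paternally expressed hydrolase, was called. Mest had 199.8 and 183 CPM in wild type with DMSO, 237 and 247 in wild type with TSA, 308 and 259 in TKO with DMSO and 632 and 742 in TKO with TSA, which placed both TKO TSA libraries above all others. Its interaction was 0.94 ± 0.16 (SE, edgeR adjusted p = 0.0198), lost without wild type TSA replicate 1, TKO DMSO replicate 2 or TKO TSA replicate 2 (highest adjusted p = 0.14 without TKO DMSO replicate 2).

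The remaining lists held 1 or 2 calls or none. Interferon-stimulated genes had 2 calls of 35, in opposite directions: the chemokine Cxcl10, with 1.28 and 1.22 CPM in wild type with DMSO, 3.3 and 3.53 in wild type with TSA, 0.684 and 0.655 in TKO with DMSO and 8.25 and 12.7 in TKO with TSA and an interaction of 2.51 ± 0.49 (SE, edgeR adjusted p = 0.0341), and the membrane protein Ifitm1, with 72.6 and 82 CPM in wild type with DMSO, 59.1 and 59.7 in wild type with TSA, 133 and 153 in TKO with DMSO and 68.5 and 66.7 in TKO with TSA and an interaction of -0.70 ± 0.15 (SE, edgeR adjusted p = 0.0404). The median of that list was -0.18. Of 24 sterol synthesis genes (median 0.13), Insig1, a brake on sterol synthesis, was called. Insig1 had 154 and 189.6 CPM in wild type with DMSO, 149 and 141 in wild type with TSA, 149 and 159 in TKO with DMSO and 218 and 236 in TKO with TSA, with an interaction of 0.80 ± 0.15 (SE, edgeR adjusted p = 0.0322). Of 16 p53 targets and CDK inhibitors (median 0.20), Pmaip1, the cell death factor Noxa, was called. Pmaip1 had 55.9 and 42.5 CPM in wild type with DMSO, 130.3 and 118 in wild type with TSA, 21.3 and 20.3 in TKO with DMSO and 129 and 111 in TKO with TSA, with an interaction of 1.19 ± 0.19 (SE, edgeR adjusted p = 0.0176). Of 75 cytosolic ribosomal protein genes (median -0.09), Rps6 was called with -0.85 ± 0.18 (SE, edgeR adjusted p = 0.0403). It has pseudogene copies, so its counts are uncertain. Of 16 trophoblast genes, Eomes was called, the list median was 0.01, and trophoblast markers summed to at most 5.42 CPM under DMSO and to 39.4 to 51.7 CPM with TSA over both genotypes, with Tpbpa at 0 counts. Cdx2 was higher in wild type with TSA (25 and 21.3 CPM) than in TKO with TSA (7.78 and 4.33). Of 16 genes of the DNA methylation machinery, Dnmt3b was called, and the list median was 0.02. None of the 20 primitive endoderm genes, 18 Nodal pathway genes or 11 histone deacetylase genes tested was called with edgeR, and the list medians were -0.22, -0.14 and 0.04. In these 3 lists 2, 7 and 1 members had an unadjusted p below 0.05, DESeq2 called 2, 2 and 0, and limma-voom called 0, 1 and 0. Over all tested genes, 14.4% had an unadjusted edgeR p below 0.05, DESeq2 called 2.53% and limma-voom 0.676%. Primitive endoderm markers summed to 18.8 to 22.2 CPM in wild type with DMSO, 27.1 to 31.2 in wild type with TSA, 68.1 to 71.6 in TKO with DMSO and 53.9 to 58.0 in TKO with TSA. Cubn alone had 41.2 and 41 CPM in TKO with DMSO and 14.9 and 15.1 in TKO with TSA. Without it, a choice made after its values were seen, the sums were 14.4 to 15.9, 23.3 to 25.5, 26.9 to 30.7 and 39.0 to 42.9 CPM in the same order of groups. These sums were higher with TSA in both genotypes, but the single markers went different ways in TKO. Sox17 rose there from 3.899 and 2.91 CPM with DMSO to 13.52 and 13.74 with TSA, and Amn rose as well. Sox7 fell there from 2.325 and 1.891 to 0.879 and 1.067 CPM, and Gata4 fell as well. Gata6 and Dab2 overlapped between the treatments in TKO. The medians of these remaining lists also moved when 1 library was left out: from -0.33 to 0.29 for trophoblast, -0.08 to 0.12 for DNA methylation machinery, -0.27 to -0.04 for interferon-stimulated, 0.03 to 0.23 for sterol synthesis, 0.17 to 0.33 for p53 targets and CDK inhibitors, -0.14 to -0.05 for ribosomal protein, -0.33 to -0.12 for primitive endoderm, -0.24 to -0.03 for Nodal pathway and 0.01 to 0.16 for histone deacetylase genes. DESeq2 and limma-voom called 2 and 1 of the germline, 1 and 0 of the X-linked testis, 5 and 2 of the imprinted, 3 and 1 of the pluripotency, 4 and 4 of the formative and primed, and 5 and 4 of the neuronal genes. They called 3 and 0 of the interferon-stimulated, 3 and 1 of the trophoblast, 1 and 0 of the ribosomal protein genes, and 2 and 1 in each of the sterol, p53 and DNA methylation lists. Pmaip1 was lost without either TKO DMSO library (highest adjusted p = 0.137 without TKO DMSO replicate 2). Cxcl10 was kept only without wild type DMSO replicate 2 or TKO TSA replicate 1, and Ifitm1 only without wild type DMSO replicate 2 (highest adjusted p = 0.169 without TKO DMSO replicate 2, and 0.22 without TKO DMSO replicate 2). Insig1 was lost without any of the 4 libraries of wild type TSA and TKO DMSO or without TKO TSA replicate 2 (highest adjusted p = 0.154 without TKO DMSO replicate 2). Rps6 was lost in each of the 8 fits (highest adjusted p = 0.217 without TKO DMSO replicate 2).

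By position, the X chromosome held the highest share of called genes. Of 632 tested X-linked genes, 23 were called (3.64%, against 1.35% over all genes), 19 with a more positive and 4 with a more negative TSA effect in TKO, so that 10.7% of the called genes were X-linked against 3.99% of the tested genes. The median interaction of X-linked genes was 0.10. They included 11 more-than-additive genes that rose, among them Clcn5 and Tsc22d3, 6 less-than-additive genes that fell, among them G6pdx and Ptchd1, and Sox3 and Hs6st2 in the opposite class, examples chosen after their values were seen. Tsc22d3, a glucocorticoid-induced leucine zipper protein, had 7.64 and 11.9 CPM in wild type with DMSO, 12.5 and 18.1 in wild type with TSA, 3.69 and 5.39 in TKO with DMSO and 24.8 and 29.8 in TKO with TSA, with an interaction of 1.94 ± 0.37 (SE, edgeR adjusted p = 0.0341). G6pdx, the entry enzyme of the pentose phosphate pathway, had 97.5 and 82.7 CPM in wild type with DMSO, 59.7 and 57.8 in wild type with TSA, 63.3 and 63.4 in TKO with DMSO and 67 and 64.7 in TKO with TSA. Its TKO libraries differed little with TSA, and the interaction was 0.67 ± 0.15 (SE, edgeR adjusted p = 0.0471). Tsc22d3 stayed called in 4 and G6pdx in 1 of the 8 fits that left out 1 library (highest adjusted p = 0.122 and 0.2). The share on the X chromosome exceeded the overall share in each of those 8 fits. The size of that excess varied between the fits. Where leaving out a library left few calls, as without TKO DMSO replicate 2, the share rested on few X-linked genes. The fits reuse the same libraries, so a kept excess gives no separate support. With all 8 libraries, DESeq2 called 5.06% of the X-linked genes against 2.53% of all tested genes. With limma-voom the shares were 2.22% and 0.676%. A higher share of calls on the X chromosome was not particular to the interaction. Between the genotypes, 29.6% of X-linked genes were called under DMSO, against 20.5% of all tested genes. Under TSA it was 29.4% against 18.5%. For TSA against DMSO the shares were 55.7% against 52.9% in wild type and 63.4% against 58.8% in TKO.

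**Figure D5:**
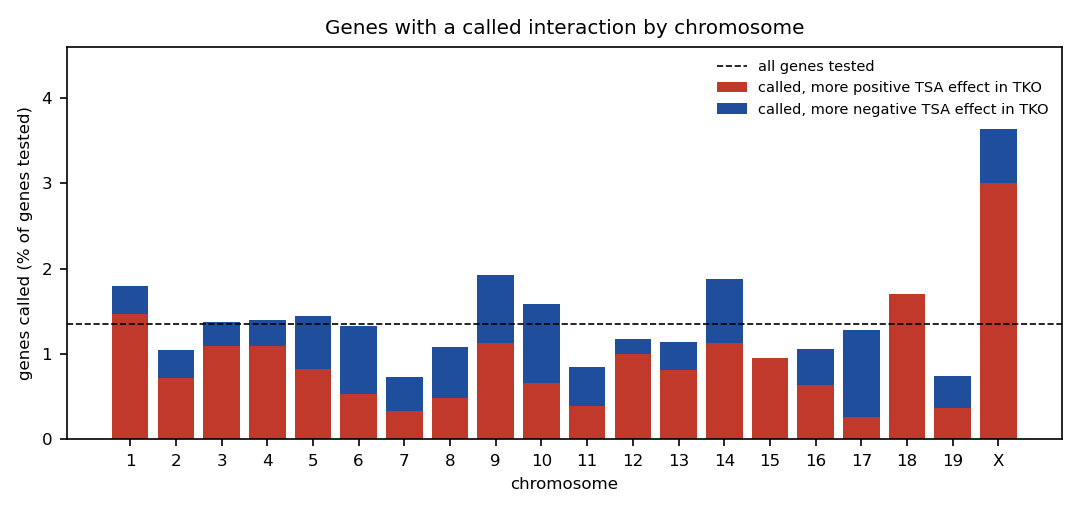
Genes with a called interaction as a percentage of the genes tested on each chromosome, with red for a more positive and blue for a more negative TSA effect in TKO and a dashed line at 1.35%, the share over all genes tested. The X chromosome stands at 3.64% and the autosomes at or below 1.92%.

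Called genes also differed from all genes in length and level, which set how many reads a gene has. Of the quartile of genes with the longest exons, 81 were called (2.05%), 61 of them with a more positive TSA effect in TKO. Of the quartile with the shortest exons, 23 were called (0.581%), 4 of them more positive and 19 more negative. The median of the mean levels was 37.3 CPM in the longest quartile and 12.4 CPM in the shortest, and the part of read number in these shares was not tested. Among genes under 1 CPM in wild type with DMSO, 7 were called (0.326%). Between 1 and 10 CPM it was 62 (1.59%), between 10 and 100 CPM 121 (1.74%), and over 100 CPM 24 (0.850%). Those bins use the wild type DMSO libraries, which also enter the interaction, so the shares are a description only. Without TKO DMSO replicate 2, which left 15 calls, the shortest quartile held 4 calls and the longest 3. In the other 7 fits that left out 1 library the longest quartile held more. These fits reuse the same libraries, so that order gives no separate support.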

How the data were processed

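RNA was measured in 8 libraries, 2 for each of 4 groups. Ribosomal RNA was removed and directional, paired-end libraries were made, per the labels' protocols. The authors deposited raw read counts per gene and each gene's summed exon length in bases. The submitters' processing notes name TopHat2 2.0.13, featureCounts 1.4.5-p1, edgeR 3.22.3 and mm10, without saying how each was set. The annotation, the use of strand and the treatment of reads with several matches are not given in the sources used here, so genes with overlapping exons or close copies are uncertain.

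The test was edgeR's robust quasi-likelihood test (edgeR 4.0.16, R 4.3.3) after filterByExpr and TMM scaling, with 1 mean per group, 4 residual degrees of freedom, two-sided p-values and Benjamini-Hochberg adjustment over 15822 genes. The script was tested on simulated data. Standard errors are approximate, being the log2 change divided by the root of F. An exact permutation test of 1 gene between 2 groups, 2 libraries against 2, cannot go below 0.333. That bound is not one for the interaction, which uses all 4 groups. With 2 libraries in each group, p-values rest on the spread shared across genes (common coefficient of variation 10.3%). No pair of replicates agreed within sampling noise (chi-square per degree of freedom 5.28 to 12.2). An interaction gene was in the opposite class if TSA was called in each genotype with different signs, and otherwise more- or less-than-additive by the larger absolute effect. Named genes were the 4 largest interactions in each subgroup among called genes with over 3 counts in all libraries, up to 5 called members of each of 17 lists by p, and the 3 targeted genes. The members, lists and rules were chosen with earlier results of these data known. The values of 1 called gene are not reported here. Promoter sequences are from RefSeq (GRCm38.p6), and gene coordinates are those of the deposited table. Alternatives used DESeq2 1.42.0 and limma 3.58.1, other scalings, filters and thresholds, a replicate block, and fits without 1 library.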

Additional observations from a re-analysis of the deposited data

Results flagged for a closer look

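The TSA effect differed between wild type and TKO in 214 genes by the test of the difference itself. For the named genes among them the adjusted p of that difference, from edgeR's quasi-likelihood test, is given in brackets. The more-than-additive genes that rose in TKO were Nefm (0.0448), Thbs1 (0.0397), Col1a1 (0.0279), Eomes (0.00368), Mest (0.0198), Tnc (0.0369), Cxcl10 (0.0341), Insig1 (0.0322) and Pmaip1 (0.0176). Those that fell in TKO were Emp1 (2.29e-05), Trh (0.00601), Gap43 (0.00318), Tgfbi (0.00932), Prdm14 (0.037), Ifitm1 (0.0404) and Rps6 (0.0403). The less-than-additive genes that rose in wild type were Gpr146 (0.037), Clic5 (0.0485), Fbln2 (0.027), Cdkl4 (0.0342), Stk31 (0.0422) and Nxf2 (0.0252). Those that fell in wild type were 9930014A18Rik (0.0252), Ptchd1 (0.0397), Grb10 (0.000639), Dpp4 (0.00887) and Zic2 (0.0134). The opposite genes that rose in TKO were Sox3 (0.0198), Shisa3 (0.027), Pkdcc (0.00453), Cdh10 (0.0198), Cav1 (0.0322), Col3a1 (0.0373) and Dnmt3b (0.00318). The opposite genes that fell in TKO were Alox12e (0.0397), Ccdc13 (0.0323), Dusp26 (0.0241), Lgals3 (0.00275) and Ncam1 (0.0249).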

How the results depend on the processing

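All 214 called genes kept the sign of their interaction on the log2 scale in each of the 19 other fits or thresholds, and 208 of them as a difference in CPM. They were called from these same libraries, and a change of threshold leaves the fit as it is, so a kept sign gives no separate support. With total counts alone the median TSA effect of all genes moved to 0.22 in wild type and 0.19 in TKO, and with upper quartile factors to 0.16 and 0.11, on the log2 scale. With DESeq2 size factors, those 2 scalings, a stricter filter or no robust option, 179 to 213 genes were called. The cause of the differences in number below was not tested. Called genes numbered 401 with DESeq2's Wald test (274 more positive, 127 more negative, 284 more-than-additive, 86 less-than-additive), 107 with limma-voom (69, 38, 66, 21, and 20 opposite), and 350 without a filter on low counts (214, 136, 232, 78). At an adjusted p below 0.01 there were 24 (17, 7, 18, 3, and 3 opposite), and below 0.10 there were 463 (300, 163, 306, 93, and 64 opposite). With the opposite class set by sign alone it held 76 genes, the more-than-additive class 111 and the less-than-additive class 27. In the fits without 1 library, called genes ranged from 15 to 427, more positive from 10 to 301, more negative from 5 to 126, more-than-additive from 11 to 294, less-than-additive from 2 to 78 and opposite from 2 to 55. A group left with 1 library was assumed to vary like the others.

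The titles number the replicates but do not say what a number shares, and same-numbered deviations correlated at 0.0673 to 0.325 over genes. With the replicate block, 696 genes were called (444 more positive, 252 more negative, 462 more-than-additive, 158 less-than-additive, 76 opposite), and all 214 were among them.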

Other observations

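Besides Trh and Gap43, 4 more-than-additive genes that rose had a larger fold change with TSA in TKO but a larger gain in CPM in wild type. The group means of Cd44, the hyaluronan receptor, went from 8.79 to 17.5 CPM in wild type and from 0.708 to 5.58 in TKO. Those of Ets1, a transcription factor, went from 27.4 to 56.3 CPM in wild type and from 6.94 to 31.1 in TKO. Prss23, a serine protease, went from 30.6 to 44.1 CPM in wild type and from 1.3 to 9.49 in TKO, and Moxd1, a monooxygenase-like protein, from 8.77 to 19.9 CPM in wild type and from 1.69 to 11.2 in TKO. All 4 started from a lower mean in TKO with DMSO than in wild type with DMSO. These genes are named after their values were seen.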
